A study of Mus musculus with 9 samples.

Results

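The 10 genes described here carry long-chain fatty acids from circulating lipoproteins to activated acyl-CoA inside the cell, and were chosen by name: lipoprotein lipase (Lpl), the fatty acid translocase Cd36, the transport proteins Slc27a1 and Slc27a4, the fatty acid binding proteins Fabp3, Fabp4 and Fabp5, and the long-chain acyl-CoA synthetases Acsl1, Acsl3 and Acsl4. The choice was made with earlier results of these data known. All 10 were found by symbol among the 54532 genes of the deposited tables. Poly A RNA of 3T3-L1 cells, a mouse fibroblast line that can be induced to become adipocytes, was sequenced in 9 libraries, with n = 3 in each group. Undifferentiated was the control without differentiation, from cells grown in high glucose DMEM with 10% BCS. The cells of all groups are listed with 3 days at confluence. Differentiated cells were then given a differentiation medium with 10 μg/mL insulin, 1 μM rosiglitazone and 1 μM dexamethasone. It also held the phosphodiesterase inhibitor 3-isobutyl-1-methylxanthine at 0.5 mM. Lysfree cells had the same medium and inducers with no lysine added. Lysine was left out during the differentiation itself, so they were not Differentiated cells later deprived of it. Words such as fell, rose or stayed therefore name differences between groups. By the study's methods the differentiation medium also differed from the growth medium in its serum and base, and the medium of the Undifferentiated cells at harvest is not given there, so the inducers and these differences cannot be told apart in a comparison with Undifferentiated. All groups came from a single line, and no source says whether the libraries of a group were separate cultures, so p values measure the spread between libraries, which may be technical.

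In adipose tissue, LPL splits lipoprotein triglyceride outside the cell and CD36 and the SLC27 (FATP) proteins help the freed fatty acids across the plasma membrane. FABP proteins then carry them through the cytosol, and ACSL enzymes join them to coenzyme A, which traps them for storage or oxidation. Rosiglitazone, present in both differentiation media, is a ligand of the nuclear receptor PPARγ, and Fabp4, Cd36, Lpl, Slc27a1 and Acsl1 are textbook PPARγ targets.

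Counts on genes summed to between 15880144 and 21806693 per library, and each library's error on a low count is set by this depth. The summed level of 8 adipocyte markers was 180 to 271 FPKM (fragment counts scaled to gene length and to the library total) in Undifferentiated, 4220 to 4300 in Differentiated and 50.4 to 57.4 in Lysfree, where Lep was at 0 in every library. In that order of groups, Cidec (36.7, 2450 and 12 FPKM) and Adipoq (57.8, 933 and 4.18) made up most of the Differentiated sum. Cfd went down on differentiation (77, 48.5 and 1.62 FPKM). Pnpla2 in Lysfree was not below Undifferentiated (24.7, 474 and 27.9 FPKM). Plin1 (9.19, 197 and 4.88 FPKM), Lipe (8.42, 149 and 4.35) and Slc2a4 (0.275, 10.9 and 0.00494) were highest in Differentiated and lowest in Lysfree. Of 8 preadipocyte and fibroblast markers the sum was 3690 to 3950, 856 to 861 and 1410 to 1440 FPKM. Col1a1 and Col3a1 made up most of it. Dlk1 (270, 30.3 and 65.2 FPKM), Pdgfra (43.7, 6.94 and 12.9) and Pdgfrb (84.4, 15.2 and 54.3) were highest in Undifferentiated and lowest in Differentiated. Ly6a (94.1, 71.3 and 390 FPKM) and Thy1 (70.4, 27.8 and 89.1 FPKM) were highest in Lysfree. Of 8 macrophage markers, Lyz2 and Cd14 alone reached a mean of 1 FPKM in any group, with sums of 17.3 to 21, 5.65 to 5.8 and 8.02 to 9.32, and the defining markers Adgre1, Itgam and Cd163 were at 0 in all 9 libraries. No endothelial marker (sums 0.675 to 1.15) and no myocyte marker (sums 0.0735 to 0.533) of the 8 in each list reached 1 FPKM. Lysfree 1 stood apart from Lysfree 2 and 3, with a chi-square per degree of freedom of 39.61 and 40.68 against 2.67 between the other two, a mitochondrial share of counts of 1.6% against 0.879% and 0.906%, and 338 of 11182 genes more than 2-fold away from the mean of the others. Its adipocyte marker sum, 57.3 FPKM, lay inside the range of the other two (50.4 and 57.4).

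Counting only changes of at least 2-fold that passed the test, 7 of the 10 genes were higher in Differentiated than in Undifferentiated and none lower. On the same count, 8 of the 10 were lower in Lysfree than in Differentiated. Together the 10 genes took 0.209 to 0.226% of all counts in Undifferentiated, 2.04 to 2.16% in Differentiated and 0.271 to 0.367% in Lysfree. In Differentiated vs Undifferentiated, 7 of 10 were higher DEGs (an at least 2-fold change and an edgeR adjusted p under 0.05), against 10.4% of all genes tested (21.8% in either direction). In Lysfree vs Differentiated, 8 of 10 were lower DEGs, against 10.5% of all genes tested (18.7% in either direction), and 0 were higher, against 8.14%. In Lysfree vs Undifferentiated, 2 of 10 were higher DEGs, against 5.52%, and 1 was a lower DEG, against 8.76% (14.3% in either direction). By the adjusted p alone, with no threshold on the fold, 9, 8 and 7 of the 10 passed in these comparisons, against 46.1%, 38.5% and 35.1% of all genes tested. The median log2 fold change of the 10 genes was 1.62 in Differentiated vs Undifferentiated, -1.55 in Lysfree vs Differentiated and 0.26 in Lysfree vs Undifferentiated, beside 0.02, -0.06 and -0.01 for all genes tested. Any pair of these comparisons shares a group of libraries, and each is given with its own values. As the 10 genes were chosen with earlier results known, these shares describe them and test nothing. In bulk RNA, fewer cells expressing a gene and less RNA of it per cell cannot be told apart.

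**Figure D1:**
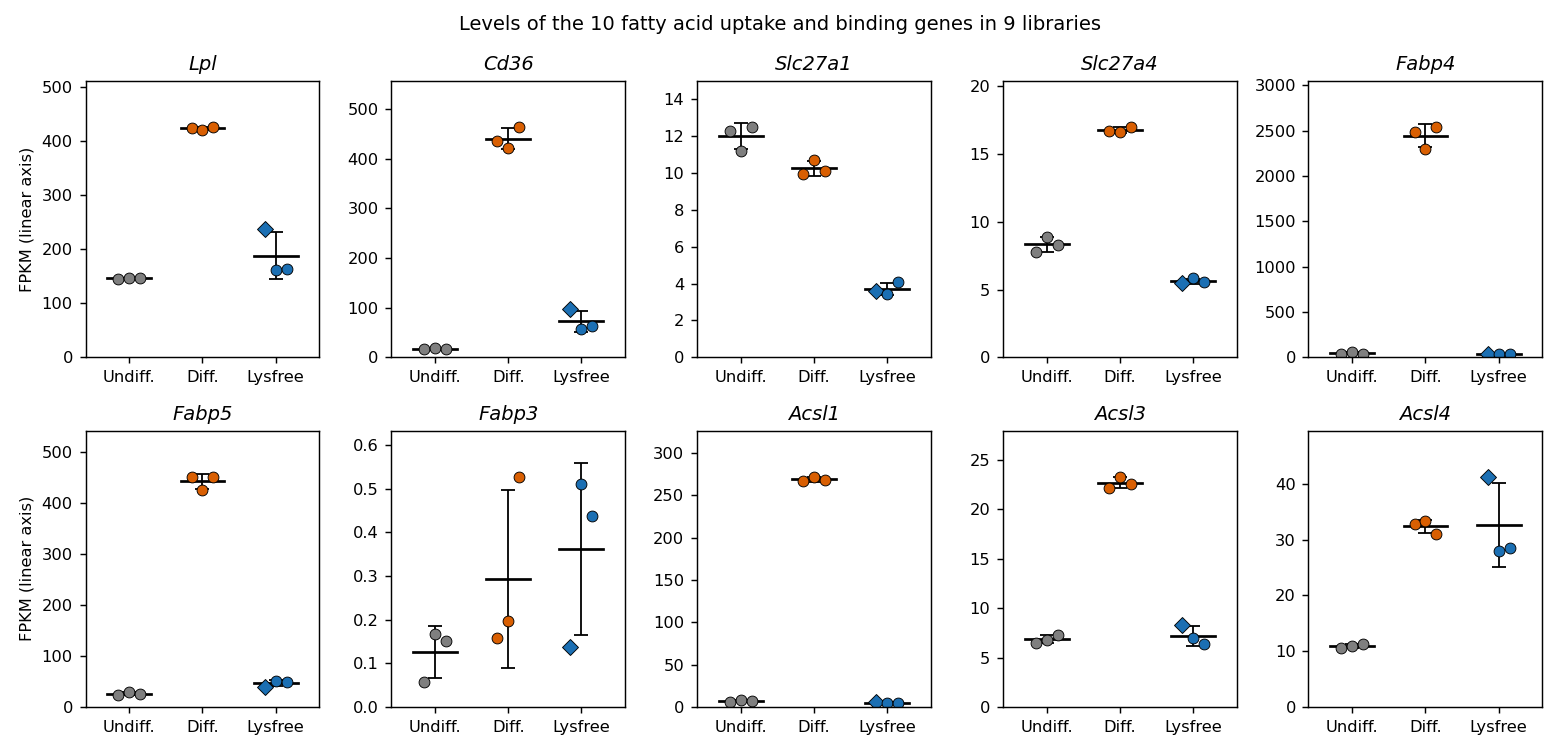
Level of each of the 10 genes in FPKM (linear axes starting at 0, scaled per gene) in the 3 libraries of Undifferentiated, Differentiated and Lysfree. Points are libraries, Lysfree 1 is a diamond, and horizontal bars with error bars are means ± SD. Differentiated lies above the other groups for Lpl, Cd36, Slc27a4, Fabp4, Fabp5, Acsl1 and Acsl3, while Acsl4 has Lysfree beside Differentiated and Slc27a1 has Lysfree lowest.

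**Figure D2:**
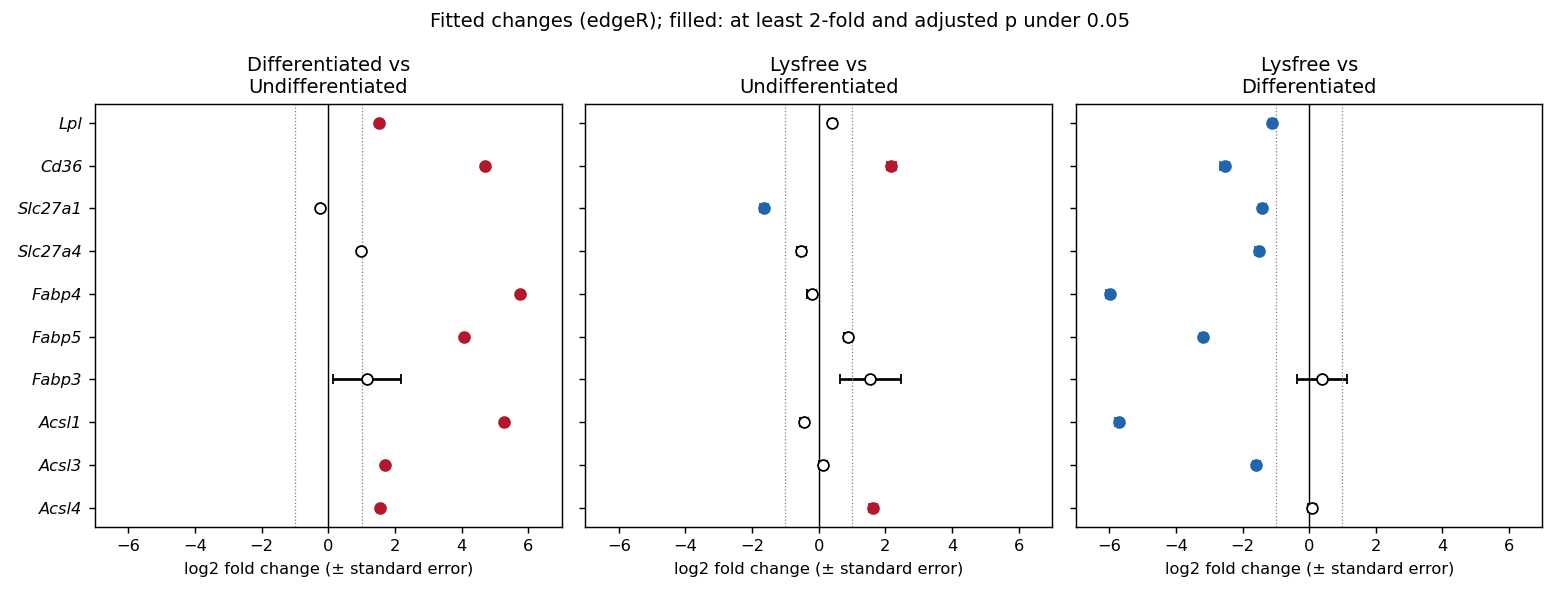
Fitted log2 fold change of each gene (edgeR, error bars ± standard error, dotted lines at 2-fold) in the 3 comparisons. Filled points are DEGs, red higher and blue lower, with 7, 3 and 8 filled points from left to right, and the wide bars belong to Fabp3, which had at most 8 counts in a library.

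Lpl (ENSMUSG00000015568, GRCm38 chromosome 8, 68880491 to 68907448, 10 exons in its main coding transcript) codes for the secreted lipase that starts the chain. Its level was 145, 147 and 147 FPKM in Undifferentiated, 424, 421 and 426 in Differentiated and 238, 162 and 163 in Lysfree. The 3 groups did not overlap, with Lysfree between the other groups and Lysfree 1 the highest of its group. Lpl rose 2.84-fold on differentiation (log2 fold change 1.51, standard error 0.04, edgeR adjusted p = 2.5e-273) and fell 2.16-fold without lysine (log2 fold change -1.11, standard error 0.11, edgeR adjusted p = 1.7e-08). Against Undifferentiated, Lysfree was higher by 0.41 on the log2 scale (standard error 0.11, edgeR adjusted p = 2.4e-03), under the 2-fold threshold, and by 0.17 without Lysfree 1. Without Lysfree 1 the difference from Differentiated was -1.34, and when tested against a 2-fold change rather than against no change, Lpl was the one gene of the 8 that was lost.

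Of 18 genes that mature, anchor or control LPL, 15 could be tested in Differentiated vs Undifferentiated, and 2 were higher and 2 lower. In Lysfree vs Differentiated 1 of 15 was higher and 5 were lower, and in Lysfree vs Undifferentiated 1 of 14 was higher and 4 were lower. Of all genes tested, 10.4%, 8.14% and 5.52% were higher in these comparisons and 11.4%, 10.5% and 8.76% lower. The median log2 fold changes of the list, in the same order, were -0.01, -0.63 and -0.38. Angptl4, a secreted inhibitor of LPL, was the most abundant of the changed inhibitors, at 61.7, 67.7 and 63.5 FPKM in Undifferentiated, 291, 292 and 294 in Differentiated and 141, 134 and 142 in Lysfree. It was a DEG in all 3 comparisons and stayed above Undifferentiated in Lysfree, by 1.16 on the log2 scale (standard error 0.10, edgeR adjusted p = 6.1e-12). Its fall of -1.01 against Differentiated (standard error 0.08, edgeR adjusted p = 5.7e-10) lay at the threshold and was -0.93 with library sizes alone and -0.99 without Lysfree 2. Angptl8, another inhibitor of LPL, had 5 to 8 counts in Undifferentiated libraries, 27 to 40 in Differentiated and 1 to 4 in Lysfree (-3.61 against Differentiated, standard error 0.47, edgeR adjusted p = 1.6e-06). Apoc1, an apolipoprotein that hinders LPL, had 29 to 96 counts in Undifferentiated, 21 to 34 in Differentiated and at most 2 in a Lysfree library. Lrp1, a receptor that takes up lipoprotein remnants, ran the other way, at 77.7 ± 8 (SD), 26.5 ± 3.76 and 81.4 ± 9.89 FPKM, and was 3.21-fold higher in Lysfree than in Differentiated (log2 fold change 1.68, standard error 0.11, edgeR adjusted p = 3.0e-11). Among the remaining genes called, named after their values were seen, Gpihbp1, the endothelial anchor of LPL, had 13 to 28 counts in Undifferentiated libraries, at most 1 in Differentiated and 0 in Lysfree. The other two, Lsr and Pcsk6, were called lower in both Lysfree comparisons and had at most 19 counts in any library.

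Cd36 (ENSMUSG00000002944, chromosome 5, 17781690 to 17888801, minus strand) codes for a membrane glycoprotein that binds and takes up fatty acids. The sequence before its annotated start inside the gene, 52905 bases downstream of the gene's 5′ end, is shown because Cd36 had the largest rise of the membrane genes. It is the 250 bases upstream of that start in RefSeq on GRCm38.p6, chr5:17835897-17836146, 5′ to 3′ on the gene's strand, and capitals mark matches on either strand to a CCAAT box, to the half-site of nuclear receptors (AGGTCA) and to GC boxes (GGGCGG):
Cd36: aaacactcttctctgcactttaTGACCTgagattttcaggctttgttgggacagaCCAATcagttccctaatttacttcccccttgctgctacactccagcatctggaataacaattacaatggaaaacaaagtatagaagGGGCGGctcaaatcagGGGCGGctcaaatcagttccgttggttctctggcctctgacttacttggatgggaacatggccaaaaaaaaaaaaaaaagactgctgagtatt
Its 300-base window, which runs 50 bases past the start, held 43.0% G and C, against a median of 52.7% over 32851 RefSeq promoter windows of the same length. Counts per gene cannot tell which start of Cd36 was used.

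The level of Cd36 was 16.1, 17.6 and 16 FPKM in Undifferentiated, 435, 422 and 464 in Differentiated and 97.1, 57.6 and 63.5 in Lysfree. The groups did not overlap, and Lysfree lay between the other groups, with Lysfree 1 the highest of its group. Cd36 rose 26.1-fold on differentiation (log2 fold change 4.71, standard error 0.06, 95% interval 24.2 to 28.2-fold). Without lysine it fell 5.8-fold from Differentiated (log2 fold change -2.54, standard error 0.13, edgeR adjusted p = 2.0e-12) and stayed 4.53-fold above Undifferentiated (log2 fold change 2.18, standard error 0.13, edgeR adjusted p = 3.9e-15). Leaving out Lysfree 1 gave -2.82 and 1.89. Of the rise in FPKM from Undifferentiated to Differentiated, Lysfree held 19%, 9.68% and 11.1% in its 3 libraries. For Lpl this share was 33.1%, 5.71% and 5.92%, so that its mean of 14.9 ± 15.8% (SD) rests on Lysfree 1.

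Of 9 genes listed for the lipid modification and trafficking of CD36, Lyn and Syk had at most 1 count in any library. By edgeR, 3 of 9 tested were higher and 0 lower in Differentiated vs Undifferentiated, against 10.4% and 11.4% of all genes tested. The 3 higher ones were Cav1, Cav2 and Cavin1, which build caveolae. The same 3 were the ones called lower in Lysfree vs Differentiated, of 8 tested, with none higher. Of all genes tested, 10.5% were lower and 8.14% higher there. Cav1 stood at 75.5 ± 2.47, 317 ± 1.45 and 111 ± 17.9 FPKM (SD, Undifferentiated, Differentiated and Lysfree) and Cav2 at 22.6 ± 1.2, 143 ± 5.18 and 36.9 ± 12.7. Cavin1 stood at 180 ± 4.49, 654 ± 5.88 and 93.6 ± 12.7 FPKM. Lysfree was thus above Undifferentiated for the caveolins and below it for Cavin1, all by less than 2-fold (log2 fold changes 0.60, 0.75 and -0.89, edgeR adjusted p = 1.4e-05, 3.5e-05 and 8.9e-09), and without Lysfree 1 these were 0.44, 0.41 and -0.81. In Lysfree vs Undifferentiated 1 of 8 was higher and none lower, against 5.52% and 8.76% of all genes tested. The higher gene was Lypla1, a thioesterase that removes palmitate from proteins, named after its values were seen. It stood at 14.3, 8.38 and 8.55 FPKM in Lysfree against 5.8, 5.05 and 5.22 in Undifferentiated. This call lay at the threshold (log2 fold change 1.00, edgeR adjusted p = 4.8e-07) and fell under it without Lysfree 1 (0.68), Undifferentiated 2 (0.96) or Undifferentiated 3 (0.99). The medians of the list were 0.62 in Differentiated vs Undifferentiated, -0.73 in Lysfree vs Differentiated and 0.49 in Lysfree vs Undifferentiated.

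Slc27a1 (ENSMUSG00000031808, chromosome 8, 71568882 to 71587302, FATP1) and Slc27a4 (ENSMUSG00000059316, chromosome 2, 29802634 to 29817522, FATP4) code for membrane proteins with acyl-CoA synthetase activity that promote fatty acid uptake. Slc27a1 was at 12.3, 11.2 and 12.5 FPKM in Undifferentiated, 9.95, 10.7 and 10.1 in Differentiated and 3.59, 3.43 and 4.06 in Lysfree. It was the one gene of the 10 that did not go up on differentiation among those with more than 8 counts in a library (log2 fold change -0.25, standard error 0.07, edgeR adjusted p = 6.3e-04, under 2-fold). Without lysine Slc27a1 fell below both other groups, 3.13-fold against Undifferentiated (log2 fold change -1.65, standard error 0.12, edgeR adjusted p = 2.1e-13) and 2.65-fold against Differentiated (log2 fold change -1.41, standard error 0.11, edgeR adjusted p = 1.1e-09). Slc27a4 was at 7.78, 8.91 and 8.29 FPKM in Undifferentiated, 16.7, 16.6 and 17 in Differentiated and 5.49, 5.82 and 5.55 in Lysfree. The Slc27a4 groups did not overlap, with Differentiated highest and Lysfree lowest. Its difference on differentiation was 1.97-fold, just under the threshold (log2 fold change 0.98, standard error 0.07, edgeR adjusted p = 4.8e-42), and passed it without Undifferentiated 2 (1.04). Slc27a4 fell 2.85-fold without lysine (log2 fold change -1.51, standard error 0.10, edgeR adjusted p = 9.8e-11) and was 1.43-fold below Undifferentiated (log2 fold change -0.52, edgeR adjusted p = 7.9e-04). Lysfree 1 was level with the other Lysfree libraries for both genes, at 0.958 and 0.966 times their mean.

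Fabp4 (ENSMUSG00000062515, chromosome 3, 10204088 to 10208576, minus strand) codes for the adipocyte fatty acid binding protein aP2, and was the most abundant of the 10 genes in Differentiated. Its level was 33, 58.6 and 40.8 FPKM in Undifferentiated, 2490, 2300 and 2540 in Differentiated and 33, 37.7 and 39.5 in Lysfree. Differentiated stood alone, while the Lysfree and Undifferentiated libraries overlapped. Fabp4 rose 54.3-fold on differentiation (log2 fold change 5.76, standard error 0.05, 95% interval 50.9 to 58-fold) and fell 63.6-fold without lysine (log2 fold change -5.99, standard error 0.09, edgeR adjusted p = 1.3e-20). Against Undifferentiated the Lysfree level did not pass the test (log2 fold change -0.22, 95% interval -0.49 to 0.05, edgeR adjusted p = 0.23), and the sign turned when Undifferentiated 2 was left out (0.04). The same difference was -0.17 with an edgeR adjusted p = 0.012 without Lysfree 1.

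Fabp5 (ENSMUSG00000027533, chromosome 3, 10012548 to 10016607), the epidermal type that fat cells and macrophages also express, was at 23.9, 29.7 and 24.5 FPKM in Undifferentiated, 451, 426 and 452 in Differentiated and 39.3, 50.1 and 49.6 in Lysfree. The 3 groups did not overlap, and unlike Fabp4 the Lysfree libraries all lay above Undifferentiated. Fabp5 rose 16.7-fold on differentiation (log2 fold change 4.06, standard error 0.05, 95% interval 15.5 to 18-fold) and fell 9.13-fold without lysine (log2 fold change -3.19, standard error 0.10, edgeR adjusted p = 4.7e-16). Lysfree stayed 1.84-fold above Undifferentiated, under the threshold (log2 fold change 0.88, standard error 0.11, edgeR adjusted p = 7.3e-08). Of its 50-base stretches, 5.48% also occur in other annotated transcripts, among them the copies Gm6166, Gm14328 and Fabp5l2, where counting could split reads. Adding Fabp5l2 to Fabp5 and Fabp3-ps1 to Fabp3 left the share of Fabp4 in their FPKM sum, by group, at 62%, 84.6% and 44%. Gm6166 and Gm14328 were not added, so their part was not tested.

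Fabp3 (ENSMUSG00000028773, chromosome 4, 130308595 to 130315463), the heart and muscle type, was near the limit of detection. It had 1, 3 and 2 counts in Undifferentiated, 2, 3 and 7 in Differentiated and 2, 8 and 7 in Lysfree, and no comparison passed the test (edgeR adjusted p = 0.39, 0.22 and 0.71). The gene overlaps Zcchc17 and Gm10570 on the opposite strand, and 37.34% of its 50-base stretches occur elsewhere, so even these counts are uncertain. At this depth no difference in Fabp3 was detectable.

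Acsl1 (ENSMUSG00000018796, chromosome 8, 46471037 to 46536051, 21 exons) codes for the main acyl-CoA synthetase of fat cells, which serves triglyceride storage and oxidation. RefSeq lists a start at the 5′ end of the gene and another 19929 bases downstream of it. The 250 bases upstream of each on GRCm38.p6, chr8:46470787-46471036 and chr8:46490716-46490965 (plus strand), are shown because Acsl1 and Acsl4 moved apart most among the synthetases, together with the same stretch of Acsl4, chrX:142390536-142390785 (minus strand). Capitals mark GC boxes (GGGCGG) in the first Acsl1 stretch and in Acsl4, where 2 of them overlap, and CCAAT boxes and a sterol response element (TCACNCCAC) in the second Acsl1 stretch, on either strand:
Acsl1, 5′ start: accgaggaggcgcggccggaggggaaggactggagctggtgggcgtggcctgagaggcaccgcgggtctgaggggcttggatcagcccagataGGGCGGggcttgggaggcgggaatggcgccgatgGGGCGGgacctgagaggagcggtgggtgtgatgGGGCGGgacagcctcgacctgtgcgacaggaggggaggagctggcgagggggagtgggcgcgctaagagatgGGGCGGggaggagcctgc
Acsl1, internal start: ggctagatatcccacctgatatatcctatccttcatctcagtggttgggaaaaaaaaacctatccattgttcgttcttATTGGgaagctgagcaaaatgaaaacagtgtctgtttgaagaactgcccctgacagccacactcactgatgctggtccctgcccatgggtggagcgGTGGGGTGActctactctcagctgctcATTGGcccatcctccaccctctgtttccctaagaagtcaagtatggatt
Acsl4: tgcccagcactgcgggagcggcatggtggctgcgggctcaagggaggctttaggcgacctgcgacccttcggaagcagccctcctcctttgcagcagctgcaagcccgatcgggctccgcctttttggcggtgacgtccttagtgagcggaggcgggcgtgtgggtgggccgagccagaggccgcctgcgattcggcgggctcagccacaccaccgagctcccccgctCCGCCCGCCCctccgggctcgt
The 300-base windows held 74.0% G and C at the 5′ start of Acsl1 and 71.7% in Acsl4, and its internal start lay below the median of all windows, 52.7%. Counts per gene cannot tell which start of Acsl1 was used.

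The level of Acsl1 was 6.23, 7.85 and 6.4 FPKM in Undifferentiated, 267, 272 and 268 in Differentiated and 5.84, 4.41 and 4.46 in Lysfree. Differentiated stood alone, and every Lysfree library lay below every Undifferentiated library. Acsl1 rose 38.6-fold on differentiation (log2 fold change 5.27, standard error 0.06, 95% interval 35.8 to 41.6-fold) and fell 52.5-fold without lysine (log2 fold change -5.71, standard error 0.11, edgeR adjusted p = 3.1e-19). Against Undifferentiated, Lysfree was lower by less than 2-fold (log2 fold change -0.43, standard error 0.12, edgeR adjusted p = 3.9e-03), and the value was -0.60 without Lysfree 1. The unclassified transcript Gm45244, on the opposite strand of Acsl1, had 0 to 57 counts and held a mean of 40.7 in Differentiated. The strand setting of the counting is not given in the sources used here, so its reads and those of Acsl1 cannot be told apart, against 43298 to 53033 counts of Acsl1 in Differentiated. Of the 50-base stretches of Acsl1, 9.23% occur in other annotated transcripts, Gm45244 first among them.

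Acsl3 (ENSMUSG00000032883, chromosome 1, 78657825 to 78707743), a synthetase of the endoplasmic reticulum and of forming lipid droplets, was at 6.51, 6.75 and 7.28 FPKM in Undifferentiated, 22.2, 23.3 and 22.6 in Differentiated and 8.33, 6.99 and 6.34 in Lysfree. Lysfree overlapped with Undifferentiated and Differentiated lay above both. Acsl3 rose 3.27-fold on differentiation (log2 fold change 1.71, standard error 0.07, edgeR adjusted p = 1.3e-128) and fell 3.01-fold without lysine (log2 fold change -1.59, standard error 0.11, edgeR adjusted p = 1.1e-10). The Lysfree difference from Undifferentiated was 0.12 (95% interval -0.14 to 0.38, edgeR adjusted p = 0.51), and -0.01 without Lysfree 1. Utp14b lies within Acsl3 on the same strand and had a mean of 125, 419 and 173 counts in the 3 groups, so that its reads may be part of these values or the reverse.

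Acsl4 (ENSMUSG00000031278, chromosome X, 142317993 to 142390535, minus strand), a synthetase that prefers arachidonic acid, was at 10.6, 10.9 and 11.3 FPKM in Undifferentiated, 32.8, 33.3 and 31.1 in Differentiated and 41.3, 28 and 28.6 in Lysfree. Differentiated and Lysfree overlapped and both lay above Undifferentiated. Acsl4 rose 2.91-fold on differentiation (log2 fold change 1.54, standard error 0.06, edgeR adjusted p = 3.6e-141) and was 3.08-fold above Undifferentiated in Lysfree (log2 fold change 1.62, standard error 0.12, edgeR adjusted p = 4.4e-13). Between Lysfree and Differentiated the log2 fold change was 0.07 (95% interval -0.17 to 0.32, edgeR adjusted p = 0.64). Its sign was not stable: without Lysfree 1 the value was -0.15 (standard error 0.05, edgeR adjusted p = 3.7e-03), and Lysfree vs Undifferentiated was 1.40, while limma on log2 FPKM gave -0.01 between the differentiation media. Of the 10 genes, Acsl4 alone was a higher DEG in both differentiation media without being a DEG between them.

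Within each family the balance of the members described here moved, on a scale divided by gene length. By deposited FPKM, Acsl1 held 27.7 ± 2.77% (SD, n = 3) of the summed Acsl1, Acsl3 and Acsl4 level in Undifferentiated, 83 ± 0.299% in Differentiated and 11 ± 0.425% in Lysfree. Acsl4 held 44.4 ± 1.56%, 9.99 ± 0.302% and 72.7 ± 1.7%. The FPKM ratio of Acsl1 to Acsl4 was 0.626 ± 0.0855, 8.31 ± 0.284 and 0.152 ± 0.00888. Thus, of these 3 genes, Acsl1 was most abundant per length in Differentiated and Acsl4 in Lysfree, with no overlap between groups for either share. Acsl5, left out of the sum, was at 9.61, 8.39 and 12.5 FPKM in Undifferentiated, Differentiated and Lysfree. With 3 libraries against 3 an exact permutation test cannot give a p below 0.1, and no test is attached to these shares.

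Fabp4 held 62.2 ± 4.14% of the summed Fabp3, Fabp4 and Fabp5 level in Undifferentiated, 84.6 ± 0.25% in Differentiated and 44.1 ± 1.4% in Lysfree. The FPKM ratio of Fabp4 to Fabp5 was 1.67 ± 0.296, 5.52 ± 0.108 and 0.796 ± 0.0426, with each group apart from the others. Slc27a1 held 59 ± 2.96%, 37.9 ± 1.15% and 39.6 ± 2.59% of the summed Slc27a1 and Slc27a4 level, and here Differentiated and Lysfree overlapped. Slc27a3, left out of that sum, was at 7.06, 5.71 and 3.56 FPKM by group. The FPKM ratio of Cd36 to Lpl was 0.113 ± 0.00557, 1.04 ± 0.0455 and 0.385 ± 0.0269, each group again apart. The deposited length of Lpl, 10478 bases, is far above the 4115 of its main coding transcript, while for Cd36 they are 3590 and 3399, so the ratio within a group depends on the length used, while its change between groups does not.

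The gene length behind FPKM changed these shares but not their direction between groups. Each gene has the same length in every library, so another length moves the ratio between genes by the same factor in every group. The kept direction is therefore no test of the shares. The deposited length of Fabp4, 4489 bases, is its whole genomic span, while its main coding transcript has 896 bases, and the lengths for Acsl1 are 10483 and 3897. Dividing by the length of the main coding transcript, a choice made after the data were seen, gave Acsl1 shares of 49.4%, 92.6% and 24.3%, Acsl4 shares of 30.2%, 4.24% and 61%, Fabp4 shares of 69.6%, 88.4% and 52.4% and Slc27a1 shares of 73.3%, 54% and 55.7%. Which member was the more abundant within a group then turned for Acsl1 and Acsl4 in Undifferentiated, for Fabp4 and Fabp5 in Lysfree and for Slc27a1 and Slc27a4 in Differentiated and Lysfree.

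**Figure D3:**
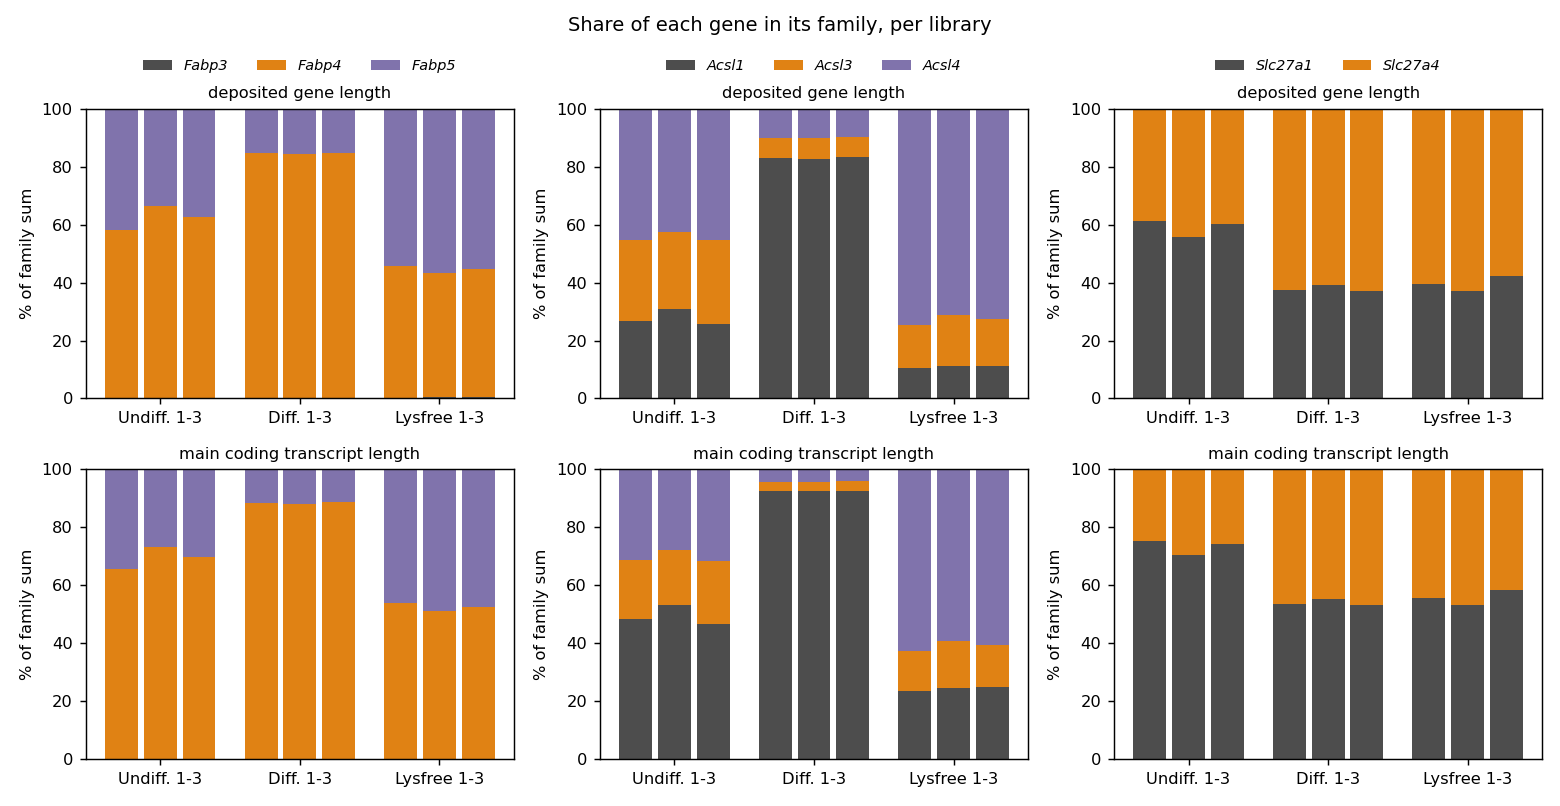
Share of each family's summed level held by each gene (percent, stacked bars from 0 to 100, 1 bar per library) for the Fabp, Acsl and Slc27a families, with the deposited gene length (top) and the length of the main coding transcript (bottom). Only the genes drawn enter the sums. In both rows Acsl1 and Fabp4 have their largest share in Differentiated and their smallest in Lysfree. As each gene has the same length in every library, the second row is no independent test of this order.

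Grouped by step, the FPKM sum of the binding proteins was 70.3 ± 16.3 in Undifferentiated, 2890 ± 140 in Differentiated and 83.4 ± 9.54 in Lysfree. That of Cd36, Slc27a1 and Slc27a4 was 36.8 ± 0.751, 467 ± 21.6 and 82 ± 21.2, and that of the synthetases 24.6 ± 1.11, 324 ± 3.56 and 44.8 ± 9.28. Cd36 and Acsl4 made up the largest part of these last 2 sums in Lysfree, and both were highest in Lysfree 1 (1.61 and 1.46 times the mean of Lysfree 2 and 3). Fabp4 and Fabp5 were lower in Lysfree 1, at 0.854 and 0.789 times that mean. The part of this library in the Lysfree levels was not tested beyond the values without it.

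Of 22 relatives of these families outside the 10 genes, DEGs in either direction were 4 of 16 tested in Differentiated vs Undifferentiated, 2 of 14 in Lysfree vs Undifferentiated and 3 of 14 in Lysfree vs Differentiated (medians -0.25, -0.43 and -0.42), near the shares of all genes tested, 21.8%, 14.3% and 18.7%. Scarb1, a scavenger receptor of the CD36 family that takes up lipid from lipoproteins, was at 2.64 ± 0.0543, 40.6 ± 0.963 and 5.14 ± 0.246 FPKM (SD). It rose 15.1-fold on differentiation and fell 7.56-fold without lysine (log2 fold change -2.92, standard error 0.09, edgeR adjusted p = 5.9e-16). Its Lysfree level was 2.01-fold above Undifferentiated, at the threshold, and fell under it in 9 of the alternatives tried. Acsbg1, a synthetase of the bubblegum type, was at 0.878 ± 0.177, 3.97 ± 0.222 and 0.933 ± 0.224 FPKM and fell 4.05-fold without lysine (edgeR adjusted p = 1.1e-08). Fabp12, named after its values were seen, was called with 2 to 10 counts in Differentiated and at most 1 elsewhere.

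Fabp4 and Fabp5 lie in a cluster on chromosome 3, where 12 annotated genes span 288636 bases between the start of Fabp5 and the end of Fabp12. Besides Fabp4 and Fabp5, Gm9833 was the only gene there with more than 10 counts in any library, with up to 158, 250 and 235 counts in the 3 groups. Pmp2 and Fabp9, binding proteins of myelin and testis that lie between them, had at most 1 count in any library.

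Downstream of the synthetases, 16 genes bind or hydrolyse acyl-CoA. In Differentiated vs Undifferentiated 2 of 15 tested were higher and 3 lower, in Lysfree vs Differentiated 2 of 15 were higher and 2 lower, and in Lysfree vs Undifferentiated 1 of 14 was higher and 1 lower (medians 0.17, -0.15 and 0.13). Of all genes tested, 10.4%, 8.14% and 5.52% were higher in these comparisons and 11.4%, 10.5% and 8.76% lower. Dbi, the acyl-CoA binding protein, was at 52.1, 82.3 and 57.6 FPKM in Undifferentiated, 317, 294 and 312 in Differentiated and 36, 59.6 and 59 in Lysfree. Like Fabp4, it overlapped between Lysfree and Undifferentiated, and it fell 5.7-fold without lysine (log2 fold change -2.51, standard error 0.14, edgeR adjusted p = 4.9e-12). Acbd4, an acyl-CoA binding protein of peroxisomes, fell 3.14-fold (log2 fold change -1.65, standard error 0.10, edgeR adjusted p = 3.9e-11). Higher than in Differentiated were the thioesterases Acot13, at 57.8 ± 5.81 against 23.6 ± 1.72 FPKM (log2 fold change 1.36, edgeR adjusted p = 7.6e-09), and Acot1, at 1.66 ± 0.183 against 0.543 ± 0.0291 FPKM (log2 fold change 1.67, edgeR adjusted p = 9.0e-07). In Undifferentiated, Acot13 was at 33.1 ± 4.52 FPKM and Acot1 at 1.67 ± 0.0943. Acot1 in Lysfree was thus level with Undifferentiated (log2 fold change 0.04), and it was called lower in Differentiated vs Undifferentiated (log2 fold change -1.64). The remaining genes called here, named after their values were seen, were Acot9, higher in Lysfree than in Undifferentiated (50.5 against 25.6 FPKM, log2 fold change 1.03, and under the threshold at 0.94 without Lysfree 1 and 1.00 without Undifferentiated 1), and Acot11 and Acot12, with at most 12 counts in any library.

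Of the 6 PPAR and RXR receptor genes, 4 were higher and 0 lower in Differentiated vs Undifferentiated and 5 lower and 0 higher in Lysfree vs Differentiated, and in Lysfree vs Undifferentiated none was called by edgeR, although 4 of 6 had an adjusted p under 0.05 (medians 1.58, -1.87 and -0.56). Of all genes tested, 10.4%, 8.14% and 5.52% were higher in these comparisons and 11.4%, 10.5% and 8.76% lower. In the last, 35.1% of all genes tested had an edgeR adjusted p under 0.05. Pparg was at 12.5, 14.9 and 13.7 FPKM in Undifferentiated, 49.6, 52.7 and 53.3 in Differentiated and 10.4, 7.32 and 7.66 in Lysfree, where each library lay below each Undifferentiated library. Lysfree was 1.57-fold below Undifferentiated (log2 fold change -0.65, standard error 0.13, edgeR adjusted p = 1.5e-04). Without Lysfree 1 this was -0.85. Of the genes named above as PPARγ targets, Slc27a1 (-1.65), Acsl1 (-0.43) and Fabp4 (-0.22, which did not pass the test) also had negative log2 fold changes in Lysfree vs Undifferentiated, and Cd36 (2.18) and Lpl (0.41, or 0.17 without Lysfree 1) positive ones. Ppard fell 2.96-fold without lysine (log2 fold change -1.57, standard error 0.10, edgeR adjusted p = 2.1e-11). Rxra, the partner of the PPARs, fell 2.22-fold (log2 fold change -1.15, standard error 0.08, edgeR adjusted p = 3.2e-10) and was 1.98-fold below Undifferentiated (log2 fold change -0.98, edgeR adjusted p = 2.9e-10), a value that crossed the 2-fold threshold in 10 of the alternatives tried. Ppara and Rxrg, the other two that were called, had at most 35 counts in any library.

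**Figure D4:**
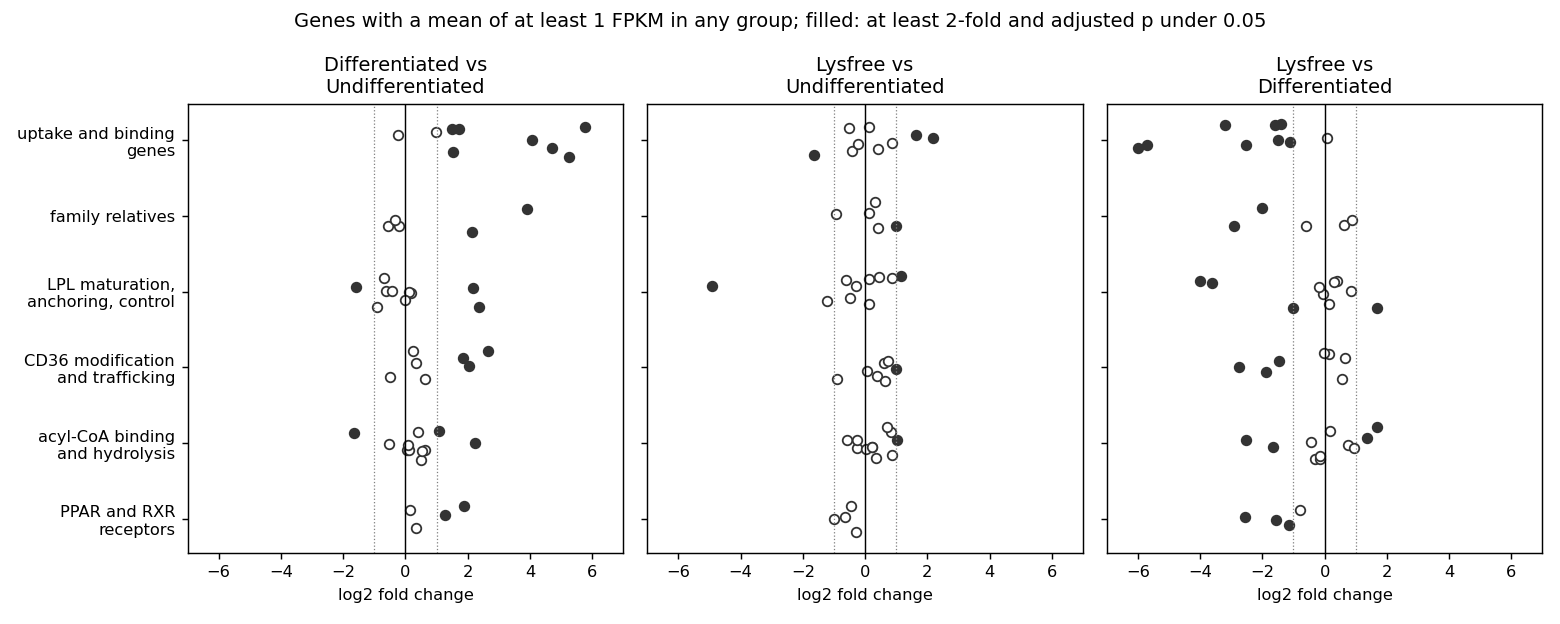
Log2 fold changes of the 10 genes and of the 5 lists around them in the 3 comparisons, for genes with a mean of at least 1 FPKM in any group. Each point is a gene, filled where it was a DEG, and dotted lines mark 2-fold. Fabp3 is too low to be drawn. Apart from Slc27a1 in Differentiated vs Undifferentiated and Acsl4 in Lysfree vs Differentiated, the uptake and binding genes and the receptors lie to the right in the first and to the left in the second of these, while the other lists hold genes on both sides.

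For each gene, the gene with the most similar profile over the 9 libraries was sought among 12707 with a mean of at least 1 CPM, as the smallest root mean square difference of centred log2 CPM. Acsl1 lay nearest to the desaturase gene Scd1 (0.071), and Fabp4 to Acsl1 (0.300). Fabp5 lay nearest to Scarb1 (0.163), Cd36 to the scavenger receptor gene Olr1 (0.208) and Slc27a4 to Acbd4 (0.068). Acsl4 lay nearest to the chaperone gene Hsp90aa1 (0.073), which was at 92.1, 264 and 289 FPKM, Acsl3 to Apex2 (0.064), Lpl to Mmgt1 (0.065) and Slc27a1 to Zfp395 (0.087). Fabp3 was too low for such a comparison. These are descriptions over libraries that fall into 3 groups, and a small difference shows a shared pattern over the groups and no more.

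Promoter windows in RefSeq, 250 bases before to 50 after a start, were matched for 7 of the 10 genes, with 10 windows in all. Slc27a1 and Acsl1 had more than 1 window each. Fabp4, Fabp5 and Lpl had none, so their promoters were not searched. A GC box (GGGCGG) was in 7 of the 10 windows, against 35.658% of all 32851 windows, and a CCAAT box (CCAAT) in 5, against 37.408%. In its strict form the PPAR response element is a direct repeat of the half-site with 1 base between. It was in none of the 10 windows and in 0.04% of all windows. At so low a share, its absence from 10 windows says nothing about these genes. The half-site (AGGTCA) itself was in 1, that of Cd36, against 16.255%. The sterol response element (TCACNCCAC) was in 1, the internal start of Acsl1, against 1.242%, and an E-box (CACGTG) in 1, a start of Slc27a1, against 7.15%. No window held the C/EBP site TTGCGCAA, against 0.183% of all windows, the TATA box TATAAA (13.616%), the AP-1 site TGACTCA (5.202%) or the C/EBP-ATF core TGATGCAA (0.895%). Both strands were searched, and a match describes letters, not binding.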

How the data were processed

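Poly A libraries were made and sequenced as paired-end reads by Novogene. The authors removed adapter and low-quality reads and mapped the rest to mm10 (GRCm38) with HISAT2 2.0.5, and the submitters' processing notes name featureCounts 1.5.0-p3. The deposited counts of reads per gene are not normalized. The deposited FPKM values were scaled by the authors to the deposited gene length and to a library total, and divided by the count they followed a single constant per library. Strand setting and annotation release are not given in the sources used here. Samples were assigned by the labels, and column names matched sample descriptions.

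Differential expression was fitted in edgeR 4.0.16 (TMM, glmQLFit and glmQLFTest, R 4.3.3) on counts of the 6 libraries of each comparison, for genes with a count above 0 in any, with Benjamini-Hochberg adjustment over all genes tested. DEGs had an adjusted p under 0.05 and at least a 2-fold change, as in the study. For Fabp4, Fabp5, Cd36 and Acsl1 in Differentiated vs Undifferentiated, the p was too small for the software to hold and is not printed. A standard error is the size of the log2 fold change divided by the square root of F, and 95% intervals use the t quantile at the fitted degrees of freedom. A gene with at most 3 counts in each library of a group was treated as at the floor. Shares and ratios of genes were computed on FPKM. The scripts were tested on simulated data.

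Gene coordinates are those of the deposited table, and the 10 genes had the same identifiers and coordinates in GENCODE vM21, from which exons, transcript lengths, overlaps and shared 50-base stretches were taken. Promoter sequences come from RefSeq on GRCm38.p6.

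The named genes were the 10 genes, of each list up to 3 that fell and 3 that rose most in Lysfree vs Differentiated with a mean of at least 1 FPKM in any group, the nearest gene to each of the 10, and markers with such a mean. The 10 genes and the lists were chosen with earlier results of these data known. Alternatives were DESeq2 1.42.0, other scalings and count filters, all 9 libraries in a single fit, the replicate number as a term, other thresholds, limma 3.58.1 on log2(FPKM + 1) and log2(FPKM + 0.1), and leaving out each library in turn. A result on a further relative of these families is not reported here.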

Additional observations from a re-analysis of the deposited data

How the results depend on the processing

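Over all alternatives, 7 or 8 of the 10 genes were DEGs in Differentiated vs Undifferentiated (9 with no fold threshold), 8 in Lysfree vs Differentiated (7, without Lpl, when tested against a 2-fold change) and 3 in Lysfree vs Undifferentiated (7 with no fold threshold). The 8th in Differentiated vs Undifferentiated was Slc27a4, with limma on log2(FPKM + 0.1) and without Undifferentiated 2. Leaving out each library in turn gave 7 to 8, 8 to 8 and 3 to 3. The replicate numbers did not pair the libraries (correlations of deviations from the group means -0.084 to 0.115), and a fit with the replicate block gave 7, 8 and 3 DEGs among the 10. The number of DEGs over all genes in Differentiated vs Undifferentiated, Lysfree vs Differentiated and Lysfree vs Undifferentiated was 3488, 2891 and 2244 with at least 10 counts in every library, 2726, 2198 and 1474 with limma on log2(FPKM + 1) and 11260, 9280 and 8428 with no fold threshold, and a test against a 2-fold change gave 1596 in Lysfree vs Undifferentiated and 2657 in Lysfree vs Differentiated. Fewer genes are tested under the count filter and a lower or higher bar is set by the thresholds, while the cause of the lower counts with limma was not tested. Family shares in Undifferentiated, Differentiated and Lysfree, without division by gene length, were 67.5%, 87.4% and 50% for Fabp4, 44.5%, 91.1% and 19.9% for Acsl1, 36.9%, 5.66% and 67.8% for Acsl4 and 65.5%, 44.7% and 46.5% for Slc27a1. With the length of the main coding transcript they were 69.6%, 88.4% and 52.4%, 49.4%, 92.6% and 24.3%, 30.2%, 4.24% and 61%, and 73.3%, 54% and 55.7%. Signs turned for differences that did not pass the test. Leaving out each library in turn, the log2 fold change in Lysfree vs Undifferentiated ranged from -0.39 to 0.042 for Fabp4 (highest without Undifferentiated 2), -0.014 to 0.207 for Acsl3 (lowest without Lysfree 1), -0.007 to 0.295 for Acsbg1 (lowest without Lysfree 3) and -0.077 to 0.089 for Acot1 (lowest without Lysfree 1), and that of Acsl4 in Lysfree vs Differentiated from -0.149 (without Lysfree 1) to 0.169. Acot1 was also at -0.019 with at least 10 counts and at -0.005 and -0.008 with limma and a pseudocount of 1 and 0.1, where Acsl4 was at -0.011 and -0.012. The cause was not tested. Scaling by library sizes alone moved the median log2 fold change in Lysfree vs Differentiated from 0.03 to 0.11 over 13617 genes that pass the expression filter of edgeR (over the 24130 tested it was -0.06).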
